A study of Mus musculus with 12 samples.

Results

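The Krüppel-like factors (KLFs) measured here were 10 transcription factor genes of mouse cerebral vessels: Klf2, Klf3, Klf4, Klf6, Klf7, Klf9, Klf10, Klf11, Klf13, and Klf15. They were chosen by name, with earlier results of these data known. Each symbol was joined to its GRCm38 Ensembl identifier in the GENCODE M21 annotation. All 10 were found among the 54119 genes to which transcript estimates could be summed, and all 10 passed the filter on low counts, which kept 19150 genes. Cerebral vessels were isolated from the forebrain of wild type C57BL6 mice aged 2 to 3 months. The mice had received an intraperitoneal injection of LPS (bacterial lipopolysaccharide) at 10 mg/kg and were killed after 15 min, 30 min, or 4 h, or had received PBS, the saline in which the LPS was dissolved. Each of the 4 groups had 3 libraries, and each library pooled the vessels of 1 male and 1 female mouse, so the libraries of a group stood for 6 mice and sex could not be separated. When the PBS mice were killed and at what time of day is not given in the sources used here, so the hour of the day could not be told apart from the treatment.

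KLFs are zinc-finger proteins that bind GC-rich and CACCC sequences in gene promoters. In endothelial cells, which line the vessels, KLF2 and KLF4 are induced by laminar blood flow through the kinase ERK5 and MEF2 factors, and they keep the endothelium anti-thrombotic and anti-inflammatory. KLF6 and KLF7 belong to the same activating subfamily, KLF3 represses through the corepressor CtBP, and KLF9, KLF10, KLF11, and KLF13 recruit the corepressor Sin3A. KLF9 and KLF15 are known as glucocorticoid-induced and clock-linked genes, and KLF10 and KLF11 as early genes of TGF-beta.

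The libraries held 18.3 to 25.9 M estimated fragments, and the KLF genes had at least 197 of them in every library. Markers of endothelial cells, pericytes, and smooth muscle were all present. The summed level of 6 endothelial markers was 9441 to 9739 CPM (counts scaled to library size with TMM factors) in PBS and 7321 to 7347 at LPS 4 h, whereas 5 microglial markers summed to 86.3 to 91.3 CPM in PBS. The endothelial sum was 11183 to 11243 CPM at LPS 30 min. Its genes did not move alike: at LPS 4 h Cdh5 was past the threshold upward, Cldn5, Pecam1, and Slc2a1 downward, and 2 did not pass. Markers of other cells moved with the groups. At LPS 15 min the summed CPM of 4 smooth muscle markers was 1488 to 1508, against 2346 to 2382 in PBS, with Acta2, Myh11, and Cnn1 past the threshold downward. That of 5 astrocyte markers was 192 to 212, against 302 to 332, with only Gfap past the threshold. Of 4 neuronal markers, Syt1 and Slc17a7 passed upward at that time and 2 did not pass. The summed CPM of the neuronal markers was 286 to 296 in PBS and 453 to 463 at LPS 15 min. That of 2 haemoglobin genes was 1455 to 1571 in PBS and 4369 to 4575 after 4 h of LPS. That of 3 neutrophil markers was at most 2.36 in PBS and 146 to 151 at LPS 4 h, with Ly6g at 0.30 CPM. None of the 47 marker genes was at 0 in all libraries. The part of these cells in the KLF values was not tested, and in such bulk samples fewer cells of a type cannot be told apart from less RNA per cell.

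The promoters of 4 members that hold the MEF2 box or E-boxes, motifs that most windows lack, are shown here. That of Klf11, which also holds an E-box, is not shown. The windows run from 250 bases before to 50 bases after the RefSeq start of the gene on GRCm38.p6 (Klf2 chr8:72318812-72319111 on the plus strand, Klf4 chr4:55532426-55532725 on the minus strand, Klf6 chr13:5861239-5861538 and Klf15 chr6:90462326-90462625 on the plus strand). Capitals mark the MEF2 box of Klf2 and the E-boxes (CACGTG, the motif of clock and bHLH factors) of Klf4, Klf6, and Klf15.
Klf2: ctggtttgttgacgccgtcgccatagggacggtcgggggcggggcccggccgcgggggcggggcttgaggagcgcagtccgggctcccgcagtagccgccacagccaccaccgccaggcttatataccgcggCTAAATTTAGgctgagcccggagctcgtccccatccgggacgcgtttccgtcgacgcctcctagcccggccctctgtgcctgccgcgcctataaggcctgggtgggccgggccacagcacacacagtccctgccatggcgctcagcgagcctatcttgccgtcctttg
Klf4: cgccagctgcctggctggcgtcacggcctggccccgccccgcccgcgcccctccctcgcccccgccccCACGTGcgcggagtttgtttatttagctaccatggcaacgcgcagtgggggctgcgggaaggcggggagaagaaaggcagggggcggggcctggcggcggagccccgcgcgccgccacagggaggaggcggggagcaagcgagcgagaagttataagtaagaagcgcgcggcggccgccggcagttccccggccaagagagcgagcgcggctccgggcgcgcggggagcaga
Klf6: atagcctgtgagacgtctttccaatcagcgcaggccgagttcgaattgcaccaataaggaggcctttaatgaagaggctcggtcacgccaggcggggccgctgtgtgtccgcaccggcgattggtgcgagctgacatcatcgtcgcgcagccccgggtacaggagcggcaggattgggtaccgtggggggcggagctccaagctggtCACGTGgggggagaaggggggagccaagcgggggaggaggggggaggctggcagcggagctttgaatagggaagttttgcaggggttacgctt
Klf15: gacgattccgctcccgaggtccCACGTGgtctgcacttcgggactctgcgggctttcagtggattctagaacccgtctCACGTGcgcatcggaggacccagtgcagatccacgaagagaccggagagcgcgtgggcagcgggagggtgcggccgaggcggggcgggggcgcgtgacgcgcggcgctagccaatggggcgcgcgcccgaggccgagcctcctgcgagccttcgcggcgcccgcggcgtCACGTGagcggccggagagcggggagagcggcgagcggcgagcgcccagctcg
A window was matched for 9 of the 10 genes, all but Klf10, and 8 motifs were searched on both strands. A MEF2 box was found in Klf2 alone, 118 bases before the start, and is held by 3.19% of all 32851 windows. E-boxes stood in Klf4, Klf6, and Klf11 once each and in Klf15 at 3 places, against 7.15% of windows with any. The GC box GGGCGG was in every window but that of Klf9 (35.7% of all windows), and CACCC was in those of Klf2, Klf3, Klf7, Klf9, Klf13, and Klf15 (57.5%). The CACCC and GC letters can also be read by SP factors. TGACG, the core of cAMP response elements, was in Klf2, Klf3, Klf4, Klf9, Klf13, and Klf15 (20.8%), and the AP-1 motif TGANTCA was in Klf9 (7.81%). No window held a match to the CArG box (1.63% of all windows) or to the NF-kB site (4.51%), which says only that these letters were not in these 300 bases.

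In PBS vessels Klf2 was the most abundant of the 10 transcripts per length. It stood at 342 to 351 TPM (transcript abundance scaled for length and library size), above 98.4% of the genes tested. Klf4 followed at 88.0 to 97.6 TPM, then Klf9 (47.7 to 50.7), Klf6 (44.7 to 47.3), Klf13 (32.3 to 35.7), Klf3 (29.4 to 35.1), Klf10 (22.4 to 27.0), Klf7 (14.3 to 16.4), Klf11 (15.1 to 16.2), and Klf15 (10.4 to 13.3). The ranges of Klf13 and Klf3, and those of Klf7 and Klf11, overlapped, and the other neighbours in this order did not. CPM divided by effective transcript length is proportional to TPM within a library, so its identical order is no second measure.

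At LPS 15 min, the levels of all 10 genes lay above PBS without overlap, where 25.2% of all genes tested did so, and 5 genes were past the threshold upward: Klf2, Klf4, Klf6, Klf10, and Klf3. Over all genes tested 3.35% were past it upward and 4.25% in either direction. The threshold was an adjusted p below 0.05 in edgeR's test of a change beyond 1.5-fold. The median log2 fold change of the 10 was 0.69, beside -0.00 for all genes tested. All 10 were chosen with earlier results of these data known, so their counts beside those of all genes are no independent evidence of direction. This holds at the later times too. Klf2 and Klf4 are also among the genes that the study singled out from these same libraries at LPS 15 min.

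**Figure D1:**
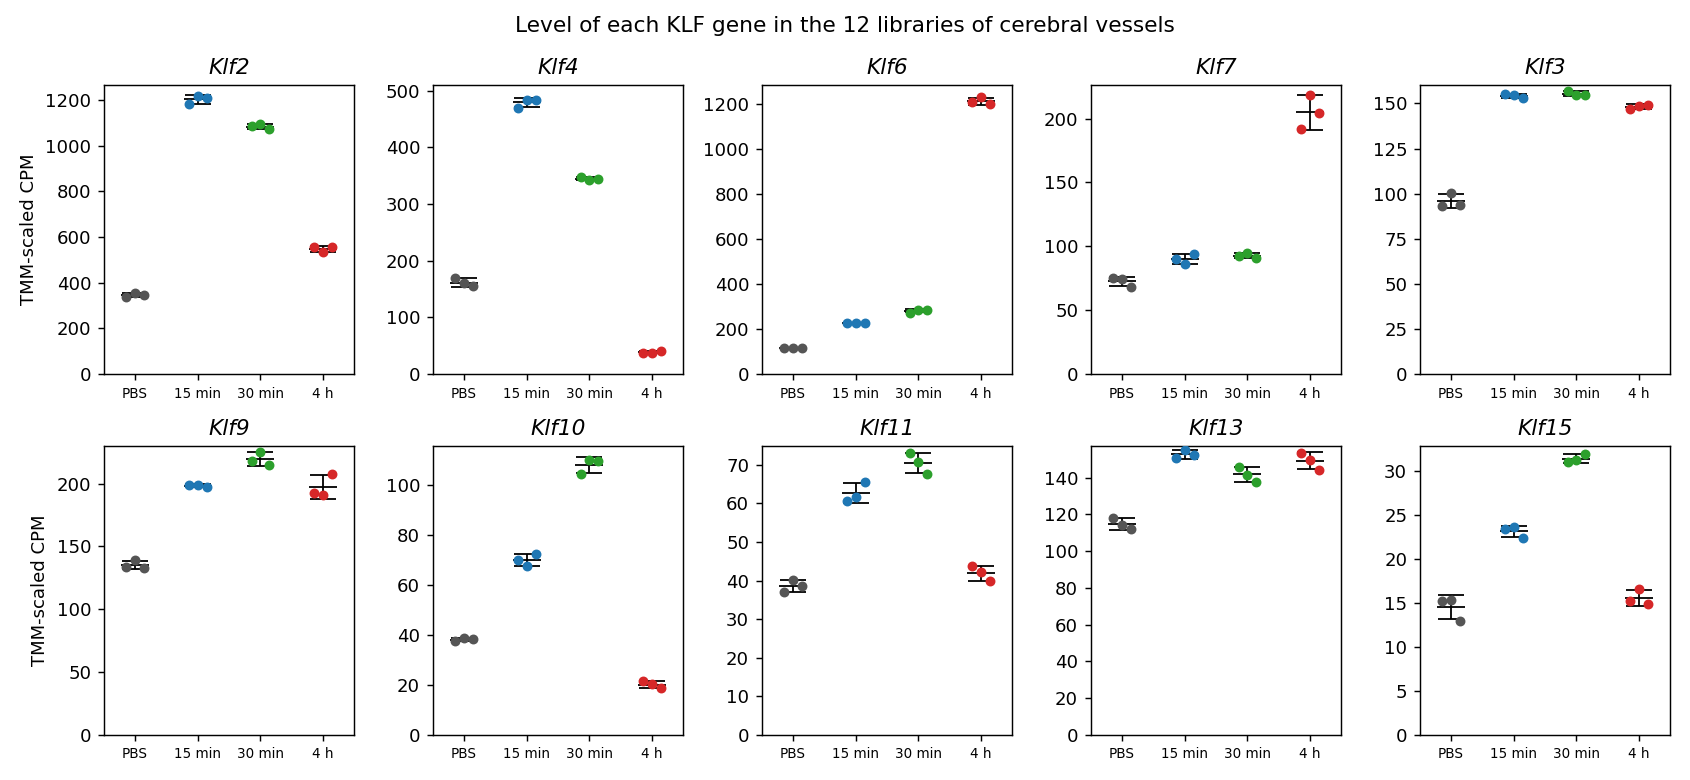
TMM-scaled CPM (vertical axis, from 0) of the 10 KLF genes in each library, by group (horizontal axis). Points are libraries, and the bar and whiskers are the mean ± SD of 3. Klf2 and Klf4 peak 15 min after LPS, Klf10 and Klf15 after 30 min, and Klf6 and Klf7 after 4 h.

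Klf2 (ENSMUSG00000055148, chr8:72319033-72321656 on the plus strand) had 339, 356, and 347 CPM in PBS and 1182, 1219, and 1207 at LPS 15 min. At LPS 30 min it had 1085, 1093, and 1071 CPM, and at LPS 4 h 555, 534, and 558. Every LPS library was thus above every PBS library in CPM. The log2 fold change against PBS was 1.79 ± 0.02 (SE) at LPS 15 min, a fold of 3.46, with an adjusted p of 8.84e-22 in edgeR. It was 1.64 ± 0.02 at LPS 30 min (adjusted p = 3.36e-21) and 0.66 ± 0.02 at LPS 4 h (adjusted p = 0.00126). The excess at LPS 4 h depended on the scale: it was -0.043 on library size alone, and in TPM Klf2 lay at 287 to 293, below the PBS range.

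Klf4 (ENSMUSG00000003032, chr4:55527143-55532466 on the minus strand) shares many endothelial targets with Klf2, but its time course differed. It had 170, 160, and 155 CPM in PBS, 470, 484, and 484 15 min after LPS, 347, 343, and 345 after 30 min, and 37.5, 37.7, and 40.2 after 4 h. The early libraries were all above PBS and the LPS 4 h libraries all below it. Its log2 fold change was 1.57 ± 0.03 at LPS 15 min (adjusted p = 2.88e-18) and 1.09 ± 0.03 at LPS 30 min (adjusted p = 3.90e-13). At LPS 4 h it fell by 2.07 ± 0.04 on the log2 scale, a 4.20-fold lower level (adjusted p = 1.52e-20), and the fall was 2.77 on library size alone.

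Klf6 (ENSMUSG00000000078, chr13:5861482-5870394 on the plus strand) is an activator described as an early gene in injured vessels. It had 118, 114, and 115 CPM in PBS, 225, 228, and 226 15 min after LPS, 273, 286, and 285 after 30 min, and 1208, 1230, and 1201 after 4 h. Each group lay above the preceding one without overlap. The log2 fold change was 0.97 ± 0.03 and 1.28 ± 0.03 at the early times and 3.39 ± 0.03 after 4 h, a fold of 10.5 (adjusted p of 8.19e-12, 3.00e-17, and 3.81e-29 in edgeR). On library size alone the value at LPS 4 h was 2.68.

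Klf7 (ENSMUSG00000025959, chr1:64029447-64122282 on the minus strand), known mainly from neurons and metabolism, was the late riser beside Klf6. PBS libraries had 75.2, 74.4, and 68.4 CPM, those of both early times 86.2 to 94.7, and those of 4 h 192, 219, and 204. The log2 fold change of 0.31 ± 0.05 at LPS 15 min and of 0.35 ± 0.05 at LPS 30 min did not pass the threshold (adjusted p = 1 for both). At LPS 4 h it was 1.5 ± 0.05 (adjusted p = 2.17e-15).

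Among the Sin3A-binding genes, Klf10 (ENSMUSG00000037465, chr15:38291463-38300706 on the minus strand), first described as the TGF-beta inducible early gene, moved most. It had 37.4, 38.9, and 38.2 CPM in PBS, 70.2, 67.5, and 72.3 15 min after LPS, 105, 110, and 110 after 30 min, and 21.5, 20.3, and 18.6 after 4 h. Like Klf4 it went from above PBS to below it without overlap at any time. Its log2 fold change was 0.88 ± 0.05 at LPS 15 min (adjusted p = 1.15e-05) and 1.5 ± 0.05 at LPS 30 min (adjusted p = 1.37e-14). At LPS 4 h it fell by 0.93 ± 0.06 (adjusted p = 3.83e-06). The call at LPS 15 min was lost with a transcript length offset (0.71, adjusted p = 0.313) and in limma with 1 or 10 added (0.70 and 0.69, adjusted p = 1). Salmon's split of Klf10 over its transcripts was unstable: Klf10-201 took 28.8% to all of its TPM in the LPS 4 h libraries.

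Klf9 and Klf11 rose at LPS 30 min. Klf9 (ENSMUSG00000033863, chr19:23141226-23168134 on the plus strand) had 134, 139, and 133 CPM in PBS and 218, 225, and 215 at LPS 30 min, a log2 fold change of 0.70 ± 0.03 (adjusted p = 0.00437). Its values of 0.55 at LPS 15 min and 0.54 at LPS 4 h did not pass (adjusted p = 1), although no library overlapped PBS. Klf11 (ENSMUSG00000020653, chr12:24651274-24662789 on the plus strand), another TGF-beta gene, had 37, 40.05, and 38.6 CPM in PBS and 72.9, 70.8, and 67.6 at LPS 30 min, with a log2 fold change of 0.87 ± 0.05 (adjusted p = 3.08e-05). At LPS 15 min it was 0.70 ± 0.05 (adjusted p = 0.0687), past the threshold only when PBS replicate 2 was left out (adjusted p = 0.0473), and at LPS 4 h it was 0.12 (adjusted p = 1). Klf13 (ENSMUSG00000052040, chr7:63886351-63938915 on the minus strand), a factor of T-cell and heart studies, was past the threshold at no time. Its CPM was 112 to 118 in PBS, 150.5 to 155 15 min after LPS, 138 to 146 after 30 min, and 144 to 154 after 4 h, and the adjusted p was 1 in each comparison with PBS.

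Klf3 (ENSMUSG00000029178, chr5:64803388-64832901 on the plus strand), the repressor that acts through CtBP, formed a plateau. It had 93.4, 100.4, and 93.7 CPM in PBS, 153 to 155 15 min after LPS, 155 to 157 after 30 min, and 147 to 149 after 4 h. The log2 fold changes were 0.69 ± 0.03 (adjusted p = 0.00952), 0.70 ± 0.03 (adjusted p = 0.00366), and 0.63 ± 0.03 (adjusted p = 0.0655). They lay close to the threshold: without PBS replicate 1 or 3 the call at LPS 15 min was lost (adjusted p = 0.0641 and 0.0515), and without PBS replicate 2 the value at LPS 4 h passed (adjusted p = 0.0109). The library kit does not mark strand, and Klf3 overlaps the opposite-strand transcript Gm20033 (72 to 275 fragments, against 1906 to 4575 for Klf3).

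Klf15 (ENSMUSG00000030087, chr6:90462576-90475238 on the plus strand), a metabolic and glucocorticoid-responsive factor, had the lowest TPM of the 10 in PBS. It had 15.2, 15.3, and 13 CPM in PBS, 23.4, 23.6, and 22.4 15 min after LPS, 31, 31.3, and 31.9 after 30 min, and 15.2, 16.6, and 14.8 after 4 h. The early groups lay above PBS without overlap and the LPS 4 h group overlapped it. The log2 fold change was 0.67 ± 0.07 at LPS 15 min (adjusted p = 0.458), 1.11 ± 0.07 after 30 min (adjusted p = 1.04e-06), and 0.10 ± 0.08 after 4 h (adjusted p = 1).

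After 30 min of LPS, 8 of the 10 had risen past the threshold and none had fallen, against 3.8% of all genes tested that had risen. The 2 others were Klf7 and Klf13. The median log2 fold change of the 10 was 0.98, beside -0.01 for all genes. When libraries were scaled by size alone, 5 of the 8 calls were made, those of Klf3, Klf9, and Klf11 being lost. At LPS 4 h the family split, with Klf2, Klf6, and Klf7 past the threshold upward and Klf4 and Klf10 downward, where 19.1% of all genes were past it upward and 13.9% downward. The median there was 0.46, beside -0.01 for all genes. Of the calls over all genes at LPS 4 h 57.96% were upward with TMM factors, 18.2% on library size alone, and 13.3% against Actb, Gapdh, and Rplp0, and at LPS 30 min these shares were 82.4%, 60.8%, and 7.28%.

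**Figure D2:**
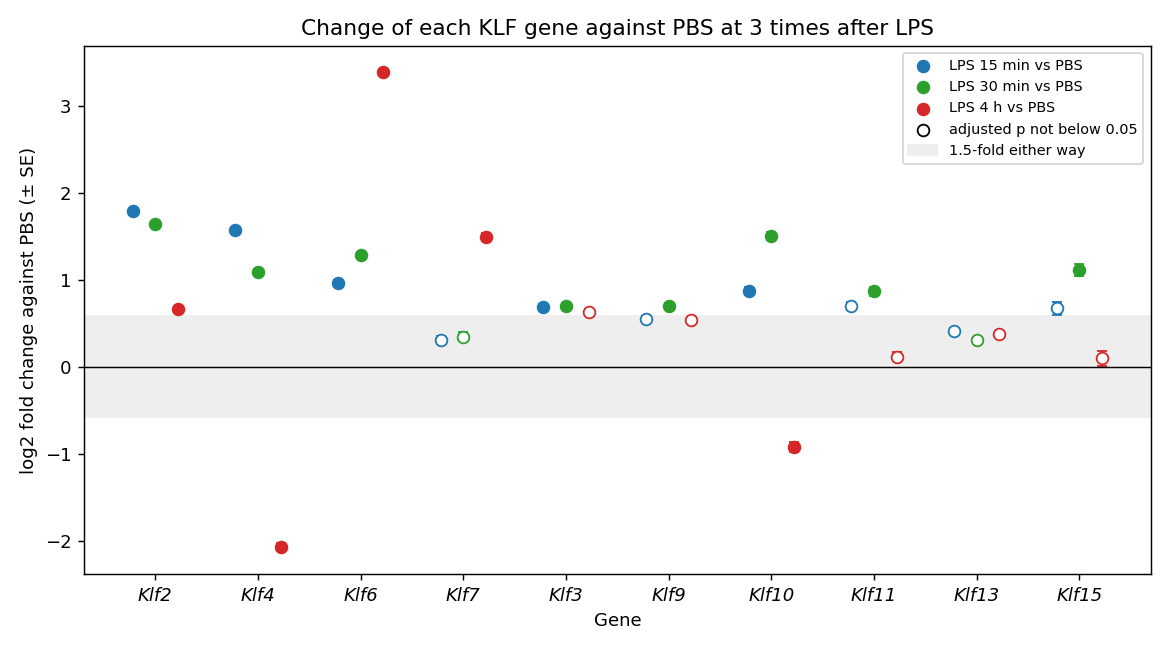
Log2 fold change of each KLF gene against PBS (vertical axis) by gene (horizontal axis) at the 3 times after LPS, with SE from the edgeR fit. Filled points have an adjusted p below 0.05 in the test of a change beyond 1.5-fold (grey band), so that all filled points are above 0 at the early times and those of Klf4 and Klf10 are below 0 at LPS 4 h.

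The comparisons between LPS times, which share no PBS libraries, showed when each gene moved. Between LPS 15 min and LPS 30 min no KLF gene passed edgeR's threshold test (4.76% of all genes did), and 0 had an unadjusted p below 0.05 in it. DESeq2 and limma with the same threshold called 0 as well. A test against no change at all called 8 of the 10 and 37.4% of all genes, with Klf6, Klf9, Klf10, Klf11, and Klf15 higher at LPS 30 min and Klf2, Klf4, and Klf13 lower. The largest of these differences were 0.63 ± 0.04 for Klf10 and -0.47 ± 0.03 for Klf4. Scaled to the reference genes Actb, Gapdh, and Rplp0, Klf4 fell by 0.95 between these times and passed the threshold.

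From LPS 30 min to LPS 4 h, 7 of the 10 passed the threshold: Klf6 (2.11 ± 0.02) and Klf7 (1.15 ± 0.05) rose, and Klf2, Klf4, Klf10, Klf11, and Klf15 fell. Over all genes 17% were past it upward and 11.9% downward. Klf4 fell by 3.17 ± 0.04 on the log2 scale, Klf10 by 2.43 ± 0.06, Klf15 by 1.01 ± 0.08, Klf2 by 0.98 ± 0.02, and Klf11 by 0.75 ± 0.05, with edgeR's adjusted p between 3.70e-25 and 0.00211. The libraries of these 2 times did not overlap for 9 of the 10, all but Klf13, nor for 67.5% of all genes tested. Klf3, Klf9, and Klf13 were at -0.07, -0.15, and 0.07 and did not pass (adjusted p = 1). On library size alone the rise of Klf7 was 0.61 (adjusted p = 0.197) and Klf9 was past the threshold downward at -0.69. In DESeq2 the fall of Klf11 had an adjusted p of 0.0550.

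The shares of the KLF transcripts in their sum do not depend on how libraries are scaled against each other. The TPM of the 10 genes summed to 655 to 684 in PBS, 1823 to 1864 15 min after LPS, 1360 to 1394 after 30 min, and 694 to 709 after 4 h. Klf2 made up 51.9% ± 1.1 (SD, n = 3) of the sum in PBS, 65.7% ± 0.2 and 63.4% ± 0.1 at the early times, and 41.3% ± 0.02 after 4 h. Klf6 held 6.89% ± 0.17 in PBS, 4.80% ± 0.06 and 6.59% ± 0.12 at the early times, and 37.2% ± 0.3 at LPS 4 h, while Klf4 went from 13.9% ± 0.7 to 1.69% ± 0.08. The sum itself does depend on the scale: in CPM per kb of effective transcript length, with TMM factors, it was 432 to 446 in PBS and 863 to 868 at LPS 4 h. The ratio of Klf6 to Klf2 was 0.133 ± 0.005 in PBS, 0.0731 ± 0.0011 at LPS 15 min, and 0.901 ± 0.007 at LPS 4 h, and that of Klf2 to Klf4 was 3.75 ± 0.23 in PBS and 24.5 ± 1.2 at LPS 4 h. These groups did not overlap in any of the ratios, for which an exact permutation test of 3 libraries against 3 cannot go below p = 0.1.

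**Figure D3:**
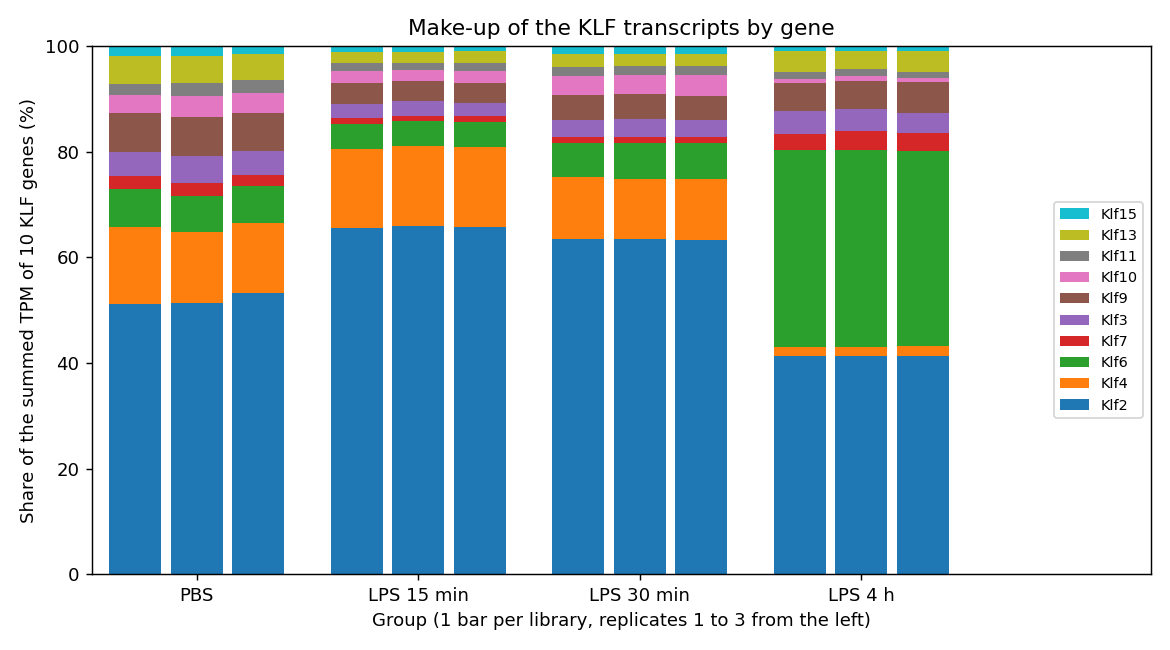
Share of each gene in the summed TPM of the 10 KLF genes (vertical axis, percent), 1 bar per library, in groups of 3. Klf2 is the largest part in every library, Klf6 grows to 36.9% to 37.4% at LPS 4 h, and Klf4 shrinks to at most 1.79%.

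Since the direction of several members at LPS 4 h depended on the scale, their values on 6 scales are given together. Klf6 (2.46 to 3.39) and Klf7 (0.57 to 1.5) were above PBS on all of them, and Klf4 (-3.00 to -2.07) and Klf10 (-1.99 to -0.93) below. Klf2, Klf3, Klf9, and Klf13 were above PBS with TMM or RLE factors and in the normalized gene table, and below it on library size alone, in TPM, and against Actb, Gapdh, and Rplp0. Klf11 and Klf15 followed the latter pattern too, except that Klf15 was at -0.02 in the gene table. Library size alone moved the median of all genes at LPS 4 h to -0.71, and the 3 reference genes moved it to -0.93. Mean TMM factors were 1.17 in PBS and 0.717 at LPS 4 h.

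**Figure D4:**
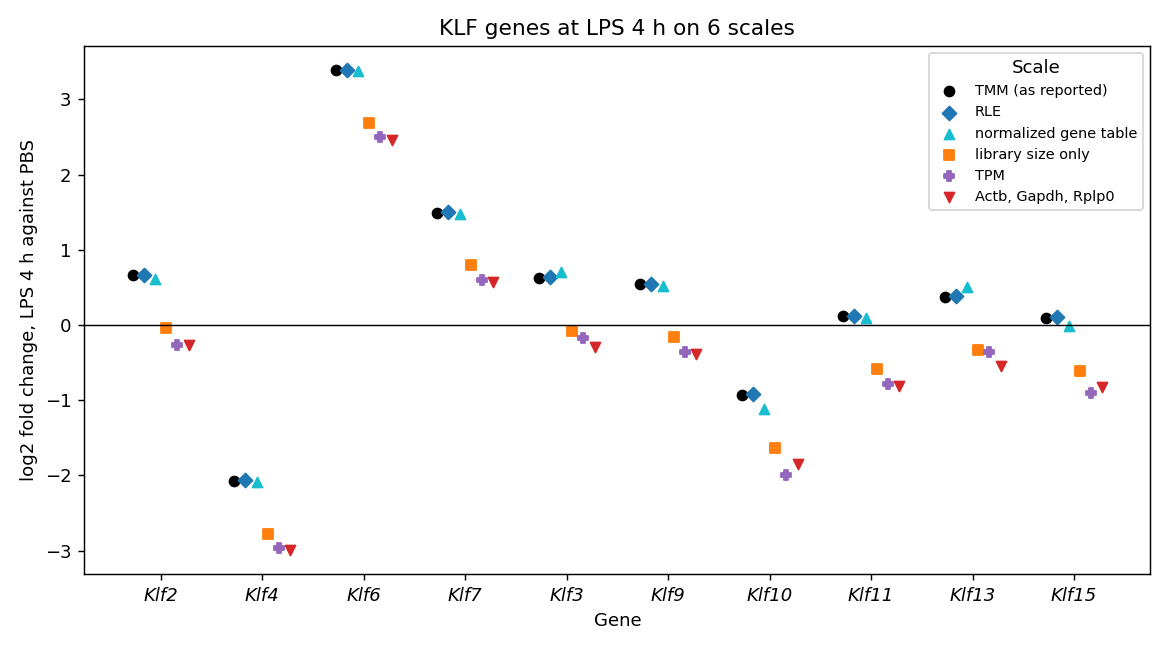
Log2 fold change at LPS 4 h against PBS (vertical axis) of each KLF gene (horizontal axis) on 6 scales, shown by marker. Klf4, Klf6, Klf7, and Klf10 keep their direction on every scale, and the other 6 genes change it.

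Genes that KLF2 or KLF4 is known to raise in endothelium were followed as a list. The shares of all genes tested that were past the threshold upward were 3.35%, 3.8%, and 19.1% at the 3 times. At LPS 4 h 13.9% were downward. Of 9 such genes, 1 was past the threshold upward at LPS 15 min (Cdkn1a, a cell cycle inhibitor), 4 at LPS 30 min, and 5 at LPS 4 h, when 1 was downward. Nos3, the endothelial nitric oxide synthase, had a log2 fold change of -0.14 ± 0.03 at LPS 15 min and 0.09 ± 0.03 at LPS 30 min (adjusted p = 1 for both) and fell by 1.13 ± 0.03 at LPS 4 h (adjusted p = 3.82e-15). Thbd, the anticoagulant thrombomodulin, was at 0.30, 0.38, and -0.35 (adjusted p = 1 at each time), and from LPS 30 min to LPS 4 h it fell by 0.73 (adjusted p = 2.10e-05). Nppc, which encodes C-type natriuretic peptide, was at 1.46 ± 0.39 (adjusted p = 0.102), 1.84 ± 0.39 (adjusted p = 0.0142), and 0.33 ± 0.46 (adjusted p = 0.988), and fell by 1.51 from LPS 30 min to LPS 4 h (adjusted p = 0.0219). Its level was low, with a mean of 0.45 CPM in PBS and 1.61 at LPS 30 min. DESeq2 made neither of these calls of Nppc. On library size alone Thbd was past the threshold downward at LPS 4 h against PBS. S1pr1, a receptor of barrier function, rose by 1.93 ± 0.03 at LPS 4 h, Plat (tissue plasminogen activator) by 1.80 ± 0.02, Gja4 (connexin of arterial endothelium) by 1.30 ± 0.04, and Adamts4, a secreted protease, by 7.78 ± 0.09. The rise of Gja4 was not called on library size alone. The median of the list was 0.08, 0.38, and 1.30 at the 3 times.

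Genes that KLF2 or KLF4 is known to restrain include adhesion, chemokine, and vasoactive genes. Of 6, there were 2 past the threshold upward at LPS 15 min (Sele and Ccl2) and 3 at both LPS 30 min and LPS 4 h (Vcam1, Sele, and Ccl2), and none was downward. The upward shares of all genes tested were 3.35%, 3.8%, and 19.1% at the 3 times. The call of Ccl2 at LPS 15 min was not made by DESeq2, and on library size alone F3 was past the threshold downward at LPS 4 h. Vcam1, an adhesion molecule for leukocytes, had a log2 fold change of 0.30 after 15 min (adjusted p = 1), 2.92 ± 0.02 after 30 min, and 4.35 ± 0.02 after 4 h. Sele, which encodes E-selectin, was at 3.64 ± 0.14, 8.83 ± 0.07, and 9.96 ± 0.06 from 0.42 CPM in PBS. Edn1 (the vasoconstrictor endothelin), F3 (tissue factor), and Ace (angiotensin converting enzyme) passed in no comparison with PBS, their values at LPS 4 h being 0.55, 0.01, and 0.31. The median of the list was 0.05, 1.65, and 2.45 at the 3 times, with that of all genes between -0.01 and 0.00.

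**Figure D5:**
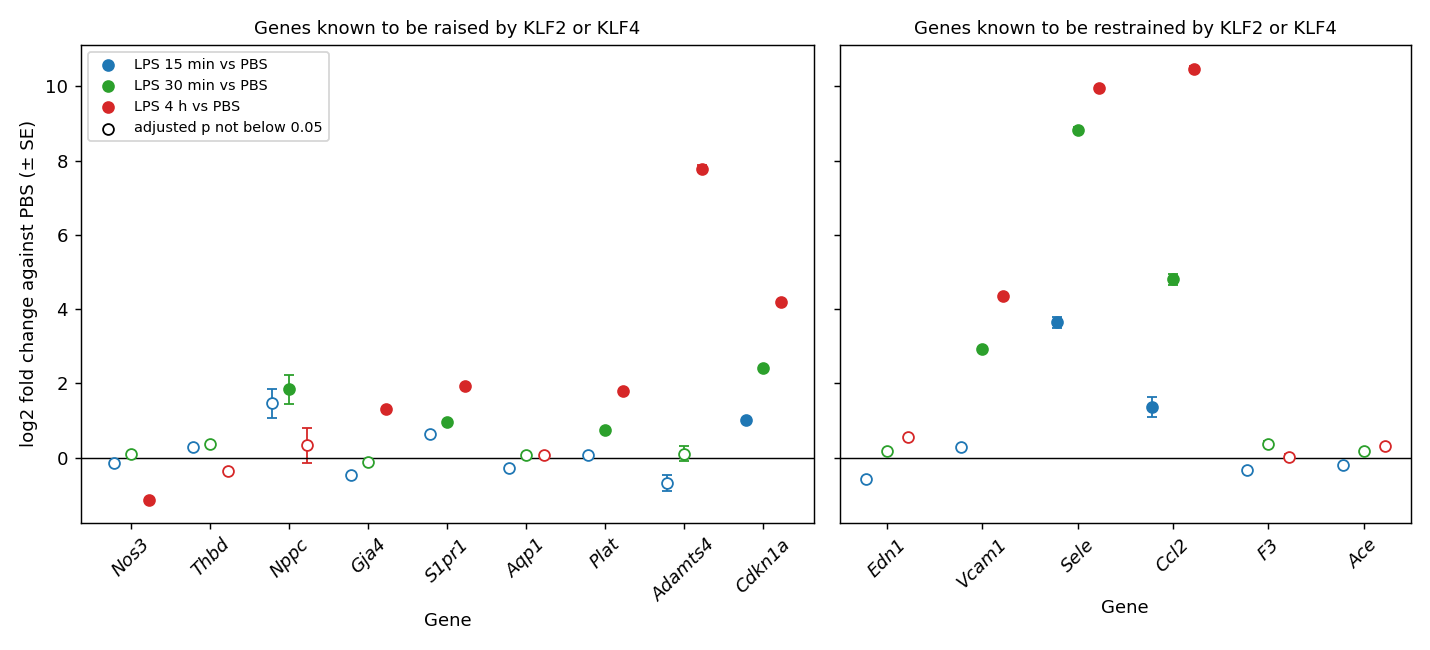
Log2 fold change against PBS (vertical axis, ± SE) of genes that KLF2 or KLF4 is known to raise (left) or restrain (right), by gene (horizontal axis) and time. Filled points have an adjusted p below 0.05. At LPS 4 h, Nos3 is at -1.13 and Adamts4 at 7.78 on the left, and Vcam1, Sele, and Ccl2 lie above 4 on the right.

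Upstream and partner genes were also followed as lists. Of all genes tested, 4.25% were past the threshold at LPS 15 min and 884 of 19150 at LPS 30 min. With such shares, 0 calls among 11 or 12 genes do not set a list apart. At LPS 4 h the shares were 19.1% upward and 13.9% downward. Of 12 genes of the ERK5-MEF2 and CCM pathways, which control Klf2 and Klf4 in endothelium, none was past the threshold in edgeR or DESeq2 at LPS 15 min or LPS 30 min with TMM factors (0 at an unadjusted p under 0.05 in edgeR), and 2 were at LPS 4 h. At LPS 30 min Mef2c was downward on library size alone, and Map2k5, Mapk7, Mef2c, and Piezo1 were against Actb, Gapdh, and Rplp0. Map2k5, the kinase upstream of ERK5, fell by 0.80 ± 0.08 (adjusted p = 0.00405), and Pdcd10, a CCM gene, rose by 0.74 ± 0.05 (adjusted p = 0.00129). The call of Map2k5 was not made by DESeq2, and that of Pdcd10 was lost on library size alone. Of 11 corepressors, coactivators, and ubiquitin ligases of KLF proteins, only the acetyltransferase gene Kat2b passed against PBS in edgeR, with 0.77 ± 0.05 at LPS 4 h (adjusted p = 0.000366), and that call too was lost on library size alone. The other KLF and SP genes numbered 16, of which 12 passed the filter on low counts. None of the 12 was past the threshold at the early times in edgeR with TMM factors or DESeq2, with 0 and 1 at an unadjusted p under 0.05 in edgeR. At LPS 30 min Sp5 was downward on library size alone, and 6 of the 12 were against the 3 reference genes. Klf5 at LPS 4 h rose from 3.64 to 10.1 CPM (1.47 ± 0.17, adjusted p = 1.41e-05) and Klf8 fell from 5.15 to 2.67 CPM (adjusted p = 0.0394, not called by DESeq2), and on library size alone Klf5 was not called and 7 genes were downward.

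Pathways linked to the other members were followed by lists. Beside them, 3.35%, 3.8%, and 19.1% of all genes tested were past the threshold upward at the 3 times, and 13.9% downward at LPS 4 h. Whether a list differed from these shares was not tested. Of 6 glucocorticoid-induced genes, 5 were past the threshold upward 15 min after LPS, 6 after 30 min, and 5 after 4 h. Among them Fkbp5 rose by 1.94 ± 0.05 and Tsc22d3 by 1.89 ± 0.03 at LPS 15 min, and at LPS 4 h Fkbp5 was at 2.94 ± 0.05 while Tsc22d3 was at 0.20 (adjusted p = 1). Of 10 core clock genes, 5 were upward and 1 downward at LPS 15 min. Per2, a clock repressor, rose by 2.54 ± 0.06, and Arntl, the clock activator BMAL1, fell by 1.63 ± 0.10. Cry1 and Npas2 at LPS 4 h were upward and Per3, Nr1d1, and Dbp downward. On library size alone those 2 upward calls were not made and 6 clock genes were downward. Of 6 TGF-beta early genes, 1 was upward after 15 min (Id1), 3 at LPS 30 min (Skil, Tgif1, and Id1), and 2 at LPS 4 h (Skil and Tgif1), when Smad7, Smad6, and Id1 were downward. Against the 3 reference genes none was upward at LPS 30 min and Smad7 was downward.

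The genes whose centred log2 CPM followed a member most closely over the 12 libraries were found by the root mean square difference, among genes with a mean of at least 5 CPM. Klf6 was followed by Galnt15 (0.07), Doc2b (0.13), and Irak2 (0.13), and Klf10 by the nuclear receptor gene Nr4a2 (0.10), Mknk2 (0.17), and the glucose transporter gene Slc2a1 (0.19). Klf4 was nearest to the clock output gene Dbp (0.21), Tnfrsf25 (0.27), and the endothelial lipid transporter gene Mfsd2a (0.31). Klf2 was nearest to Coro2a (0.16), C230057M02Rik (0.22), and Tmc7 (0.28). Klf15 lay close to Tob2, Hspe1, and Hsp90ab1 (0.11, 0.11, and 0.12), and Klf11 to the chaperone cofactor gene Chordc1 (0.05), Tbc1d10a (0.09), and Clip1 (0.09). Klf3 and Klf9 were among the 3 nearest genes of each other (0.07), and Acer2 and Tubb2a were the other two for both. Klf7 was nearest to Bcr, Eif4ebp1, and BC005537 (0.06 to 0.08) and Klf13 to Rapgef3, Gjc1, and Kmt5a (0.05 to 0.06). These differences do not rank the members, because the members moved by unlike amounts. The root mean square spread of log2 CPM over the libraries was 0.17 for Klf13 and 0.57 for Klf7, against 1.24 for Klf6 and 1.40 for Klf4. The same search in log2(TPM + 1) found all 3 genes again for Klf4 and Klf10, 2 of them for Klf2, Klf3, Klf6, Klf11, and Klf15, 1 for Klf9, and none for Klf7 or Klf13.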

How the data were processed

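RNA of cerebral vessels was measured in 12 libraries, grouped by the sample records. The authors ran Salmon 1.2.1 (per the labels) on paired-end reads against GRCm38.p6 and normalized gene counts with DESeq2. The deposited estimated counts are fragments assigned to transcripts, not normalized. The deposited TPM values are scaled for transcript length. The gene table of the authors holds a normalized signal (counts divided by size and length factors). No per-library column was left out.

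Transcripts were joined to GENCODE M21 (139852 of 140948; the rest held 0.48% to 0.850% of fragments), and estimated counts were summed to genes and rounded. Genes were tested in edgeR 4.0.16 (R 4.3.3): filterByExpr (minimum count 10, total 15, share 0.7), TMM factors, 1 quasi-likelihood fit of all 12 libraries, and glmTreat against a log2 fold change of at most 0.58. Calls used a Benjamini-Hochberg adjusted p below 0.05 over 19150 genes. The SE was taken as the log2 fold change over the root of its F statistic. Depth was 18.3 to 25.9 M fragments, and the common coefficient of variation between libraries (edgeR's BCV) was 0.0524. This is a spread between pools, not between single mice. The fit was tested on simulated data.

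The alternatives were RLE factors, library size alone, no filter, other fold limits, a transcript length offset, fits of 2 groups, a replicate block, DESeq2 1.42.0, limma 3.58.1 on the gene table with 1 or 10 added, and leaving out each library. A scale set by Actb, Gapdh, and Rplp0 was added after the data were seen. The genes named are the 10 members, the genes of 8 lists of other genes and of 13 marker lists, and for each member the 3 genes of nearest pattern. One item of these lists is not reported here. The members and lists were chosen with earlier results of these data known. Libraries with the same number in different groups deviated from their group means with correlations of -0.05 to 0.07 in 18 comparisons, so the numbers did not pair them. Nothing says that libraries of a group came from separate isolations, beyond separate pools of mice, so p-values measure the spread between these libraries. Promoters are RefSeq windows. Python 3.11.15, pandas 2.3.3, and matplotlib 3.10.9 were used.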

Additional observations from a re-analysis of the deposited data

Results flagged for a closer look

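The change against PBS differed between 30 min and 4 h after LPS for 7 of the 10 KLF genes, by edgeR's test of the difference between the 2 groups. This is the same comparison of LPS 4 h with LPS 30 min as reported above, not a further result. Over all genes tested, 17% were past the threshold upward in it and 11.9% downward. The log2 differences were 2.11 for Klf6 and 1.15 for Klf7, higher after 4 h, and -3.17 for Klf4, -2.43 for Klf10, -1.01 for Klf15, -0.98 for Klf2, and -0.75 for Klf11, lower after 4 h. The call of Klf7 was lost on library size alone (0.61, adjusted p = 0.197) and that of Klf11 in DESeq2 (adjusted p = 0.0550). Groups of 3 libraries are too small for the test of single outlying libraries.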

How the results depend on the processing

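The counts of KLF genes past the threshold were 5, 8, and 5 against PBS (15 min, 30 min, 4 h), 0 for 30 min against 15 min, and 7 for 4 h against 30 min. A test against no change called 10 at 15 min, 8 at 4 h, and 8 between the early times, and 1 between the early times with a limit of 0.58 on top. A further limit of 1.5 on log2 values left 2, 2, and 2 against PBS and 3 for 4 h against 30 min. With a transcript length offset, or in limma with 1 or 10 added, 3 were called at 15 min. Library size alone called 5 at 30 min. The scale of Actb, Gapdh, and Rplp0, chosen after seeing the data, called 3 at 30 min, 1 between the early times, and at 4 h 1 upward and 4 downward in place of 3 and 2. Leaving out 1 library at a time gave 4 to 6 at 15 min, 8 at 30 min, 5 to 6 at 4 h, 0 between the early times, and 7 for 4 h against 30 min. The changed calls were those of Klf3 and Klf11 given in the report with their libraries.

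Direction turned in these cases, and the cause was not tested. At 4 h against PBS, library size alone gave -0.043 for Klf2, -0.074 for Klf3, -0.16 for Klf9, -0.59 for Klf11, -0.33 for Klf13, and -0.61 for Klf15, and the reference genes gave -0.26, -0.30, -0.38, -0.81, -0.55, and -0.83 for the same genes. The ratio of mean TPM gave -0.26, -0.17, -0.36, -0.79, -0.36, and -0.90 for them, and turned Klf13 at 30 min against PBS (-0.075), Klf3, Klf7, Klf9, and Klf11 between the early times (-0.27 to -0.11), and Klf13 for 4 h against 30 min (-0.29). At 4 h against PBS, Klf15 was at -0.020 with a length offset and at -0.018 and -0.017 in limma with 1 and 10 added. At 30 min against PBS the reference genes gave -0.22 for Klf7 and -0.26 for Klf13. Between the early times they gave -0.16 for Klf6, -0.44 for Klf7, -0.46 for Klf3, -0.32 for Klf9, -0.30 for Klf11, and -0.030 for Klf15, and library size alone gave -0.11 for Klf7 and -0.13 for Klf3. For 4 h against 30 min Klf13 was at -0.47 on library size alone and at -0.29 by the reference genes.

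The reference genes lost the call of Klf3 at 15 min and those of Klf3, Klf4, Klf9, Klf11, and Klf15 at 30 min. At 4 h they lost the upward calls of Klf2 and Klf7 (adjusted p = 0.402 for Klf7 in edgeR). Klf2 at 4 h had an adjusted p of 0.176 with no filter, 0.0534 with a length offset, and 0.164 and 0.196 in limma. DESeq2 lost Klf3 at 15 min (0.446) and Klf3 and Klf9 at 30 min (0.111 and 0.0779). Over all genes, the calls against PBS were 814, 884, and 6315, and became 7393, 7066, and 13124 in the test against no change, 168, 372, and 2858 with the further limit, 2286 and 2064 at the early times with a limit of 0.58 after the test, 10523 at 4 h on library size alone, 4627 at 30 min and 12260 at 4 h by the reference genes, and 410 and 536 at the early times in limma with 1 added (388 and 503 with 10). Between the early times 911 became 7153, 2310, 254, 2839, 448, and 417 in the test against no change, with 0.58 after it, with the further limit, by the reference genes, and in limma with 1 and 10 added, and from 30 min to 4 h 5530 became 12498 in the test against no change, 2450 with the further limit, and 8915 on library size alone. There 58.8% of calls were upward, 21.7% on library size alone, and 31.2% by the reference genes, and between the early times 58.2%, 37.1%, and 8.35%.

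With the replicate number as a block the counts of KLF genes were 5, 8, 5, 0, and 7 and no call changed, while the numbers did not pair the libraries. RLE factors and fits of only the groups compared also changed no call. Few counts limit Klf15 most, and precision rests on 3 pools a group.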
